A study of Mus musculus with 18 samples.

Results

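The genes described here carry the dopamine signal in medium spiny neurons, the principal cells of the striatum. They are the dopamine receptors Drd2 and Drd3, the protein phosphatase 1 inhibitor DARPP-32 (Ppp1r1b), the related cAMP-regulated phosphoprotein ARPP-21 (Arpp21), the adenosine receptor Adora2a, the phosphodiesterases Pde10a and Pde1b, the G protein subunits Gnal and Gng7 and the adenylyl cyclase Adcy5. Members were all probe sets, the sets of short array probes that report 1 transcript, annotated to only 1 of these 10 symbols. This gave 10 probe sets for 6 genes among 22690 on the array. Of the 10, 8 probe sets for 5 genes (Drd2, Ppp1r1b, Arpp21, Pde10a and Pde1b) exceeded a log2 value of 4 on 3 or more arrays, as did 12674 probe sets for 7583 genes in all. Adora2a, Gnal, Adcy5 and Gng7 had no singly annotated probe set in the table used for names and were not analysed here.

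Striatum with nucleus accumbens was taken from littermate mice aged 10 to 20 weeks, 1 hour after an intraperitoneal injection, and profiled on 18 Affymetrix arrays, 1 per mouse. The groups were 6 Camk4 mutant mice given 25 mg/kg cocaine, 6 control mice given the same dose, 3 mutant mice given saline and 3 control mice given saline. Camk4 encodes CaMKIV, a calcium and calmodulin dependent kinase that acts on the transcription factor CREB. The labels give neither the kind of mutation nor the cells that carry it, and groups were taken from the sample titles, because the description lines matched them in 0 of 18 samples.

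Medium spiny neurons fall into 2 classes. Neurons of the direct pathway carry the D1 receptor, which acts through the G protein subunit encoded by Gnal and adenylyl cyclase 5 to raise cAMP. Neurons of the indirect pathway carry the D2 receptor, which lowers cAMP, and the adenosine receptor encoded by Adora2a, which raises it. Both classes hold DARPP-32, which inhibits protein phosphatase 1 once it is phosphorylated by the cAMP-dependent kinase, and both hold phosphodiesterases that end the cyclic nucleotide signal.

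CREB binds the palindrome TGACGTCA or its single arm TGACG, which reads CGTCA on the opposite strand. Promoter windows of 300 bases around RefSeq gene starts (GRCm38.p6) were found for 7 of the 10 genes, 19 windows in all. The palindrome was in 0 of the 19, against 1.79% of all 32851 windows. The arm, counted also inside the palindrome, was in 4 windows, belonging to Arpp21 and Gng7, against 20.8% of all windows. Sequences with the arm are shown for Arpp21, of which 1 probe set was called after cocaine when some arrays were left out. With all 18 arrays no member was called for cocaine. Shown are 45 bases around each of 2 positions within its 9 windows, with TGACG in capitals. On the minus strand the upstream position is chr9:112217289-112217333 and the downstream position is chr9:112185961-112186005.
Arpp21, upstream position: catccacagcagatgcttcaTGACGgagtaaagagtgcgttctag
Arpp21, downstream position: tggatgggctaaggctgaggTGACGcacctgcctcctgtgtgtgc

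The Drd2 window is shown because Drd2 was the receptor with measurable signal and the member whose level differed by numbering series. It lies at chr9:49340153-49340452 on the plus strand, with the GC box GGGCGG in capitals, as is its form on the opposite strand, CCGCCC.
Drd2: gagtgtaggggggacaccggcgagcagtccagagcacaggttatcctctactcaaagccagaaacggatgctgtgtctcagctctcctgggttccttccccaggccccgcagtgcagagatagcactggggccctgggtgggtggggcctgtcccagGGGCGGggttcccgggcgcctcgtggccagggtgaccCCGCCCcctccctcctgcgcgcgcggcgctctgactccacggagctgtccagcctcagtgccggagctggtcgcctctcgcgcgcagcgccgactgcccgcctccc
The Drd2 window was 70.3% G and C, against a median of 52.7% over all windows, and held 2 GC boxes. A GC box was in 6 of the 19 member windows and in 35.7% of all windows. These matches describe the letters of the windows, and no binding was measured.

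The tissue carried the markers of spiny neurons. All 12 genes of the shared spiny neuron list that had a probe set passed the filter, as did 5 of 7 direct pathway genes and 3 of 4 indirect pathway genes. Lists for other cells passed as well, with 8 of 8 oligodendrocyte genes, 9 of 9 astrocyte genes and 10 of 10 microglia genes. Of the remaining lists, 5 of 7 GABAergic interneuron, 5 of 6 thalamus or septum, 4 of 5 midbrain dopamine neuron, 4 of 7 endothelial, 3 of 6 cortical glutamatergic and 1 of 4 cholinergic interneuron genes passed, so passing the filter did not set spiny neurons apart. Camk4 itself (1426167_a_at) averaged 7.27 ± 0.27 in mutant cocaine arrays and 7.65 ± 0.10 in control cocaine arrays (SD, n = 6 each). In saline arrays it averaged 7.30 ± 0.16 in the mutant and 7.65 ± 0.06 in the control (SD, n = 3 each). Averaged over treatments, the mutant minus control difference was -0.37 ± 0.09 (log2, SE), with a limma adjusted p of 0.611, so the labels' genotype was visible in direction and did not pass the threshold.

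Mouse numbering and 1 array touched several values below. In each cocaine group, replicates 1 to 3 carry Arabic and replicates 4 to 6 Roman animal numbers in the titles, and all saline arrays are Arabic. The numbering was a term of the fit, so the averaged cocaine difference rests on the 12 Arabic-numbered arrays. The log2 difference between the 3' and 5' actin probe sets, a common measure of RNA quality, was 3.59 in mutant cocaine replicate 5. The remaining 5 Roman-numbered mice averaged 1.70 ± 0.13. Arabic-numbered mice averaged 2.38 ± 0.17 after cocaine and 2.20 ± 0.19 after saline (SD, n = 6 each). Results that rest on replicate 5 are given with and without it.

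No member differed by genotype past the threshold. With 9 mutant and 9 control arrays, limma called 0 of the 8 member probe sets, where 0% of the 12674 probe sets tested passed an adjusted p under 0.05 and 7.13% had an unadjusted p under 0.05. With all arrays no member probe set reached an unadjusted p under 0.05 for the averaged difference. After saline limma called 0 of the 8 (0% of all probe sets, and 2.76% with an unadjusted p under 0.05), and after cocaine also 0 (0% and 11.6%). The genotypes overlapped after saline for all 8, where 11.7% of all probe sets did not overlap. The tissue is bulk striatum, so a lower level from fewer cells of a type and from less RNA per cell cannot be told apart.

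Drd2, the receptor of the indirect pathway, was read by 1 probe set (1418950_at). Its log2 values in the 6 mutant cocaine arrays were 11.68, 11.71, 11.59, 11.41, 11.65 and 11.53, against 11.54, 11.72, 11.79, 11.26, 11.12 and 11.35 in the 6 control cocaine arrays. After saline they were 11.64, 11.80 and 11.78 in the mutant and 11.55, 11.75 and 11.58 in the control. The 3 lowest values were the Roman-numbered control cocaine arrays, and the groups overlapped after saline. Averaged over treatments, Drd2 was 8.90% higher in the mutant, with a 95% interval from -0.245% to 18.9%. The log2 difference was 0.12 ± 0.06 (SE), with an adjusted p of 0.679 in limma. An exact two-sided permutation of genotype within treatment and series, over 8000 relabellings, gave an unadjusted p of 0.0428 for Drd2. The count of the 5 genes under 0.05 by this test ran from 0 to 2 as single arrays were left out and changed in 13 of 18 such settings, and the share of all genes under 0.05 by it was not computed.

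The Drd2 difference was largest in the Roman-numbered cocaine arrays. There the means were 11.53 ± 0.12 in the mutant and 11.24 ± 0.12 in the control (SD, n = 3 each), a difference of 0.29 with no overlap between genotypes, a pattern shown with the mutant higher by 7.91% of all probe sets. In the Arabic-numbered cocaine arrays the difference was -0.02, with means of 11.66 ± 0.06 in the mutant and 11.68 ± 0.13 in the control (SD, n = 3 each). After saline it was 0.11, from 11.74 ± 0.09 in the mutant and 11.62 ± 0.11 in the control (SD, n = 3 each). Without mutant cocaine replicate 5 the Roman-numbered difference was 0.23. A limma fit to the 12 cocaine arrays put the Roman minus Arabic gap in the genotype difference at 0.31 ± 0.12 (SE), with an adjusted p of 0.848, and called 0 probe sets, where 4.43% lay under 0.05 before adjustment.

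Drd3, a receptor known chiefly from the nucleus accumbens and islands of Calleja, lay below the filter. Its probe set (1422278_at) ran from 2.02 to 2.06 in mutant cocaine arrays and from 2.02 to 2.05 in control cocaine arrays. In saline arrays it ran from 2.01 to 2.04 in the mutant and from 2.02 to 2.04 in the control. These values sit at the floor of the array processing and hold no order.

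**Figure D1:**
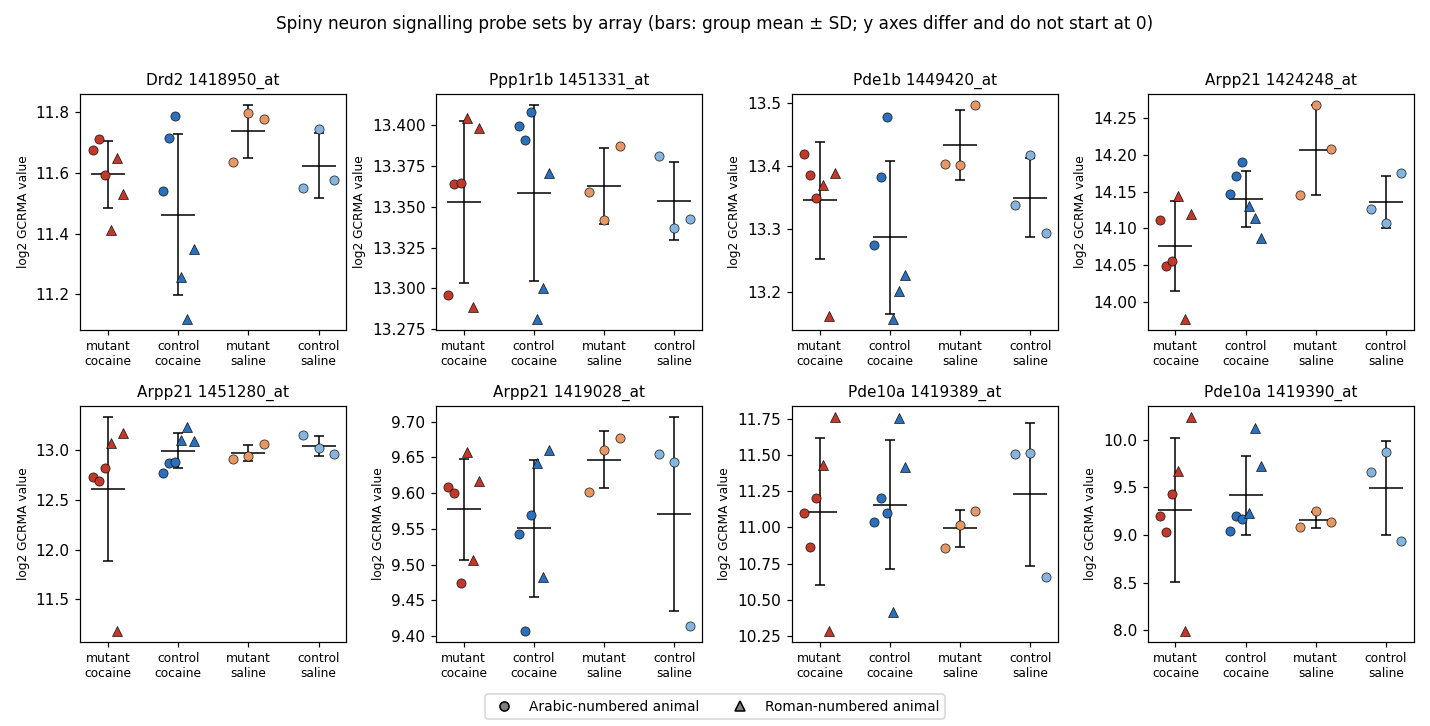
Log2 GCRMA value of the 8 measured probe sets in every array, by group, with the group mean and SD; circles are Arabic-numbered and triangles Roman-numbered mice, and each panel has its own y axis that does not start at 0. The 3 control cocaine triangles of Drd2 lie at 11.12 to 11.35, and the mutant cocaine triangle at 11.18 for Arpp21 1451280_at is replicate 5.

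DARPP-32 had the steadiest signal of the members. Ppp1r1b (1451331_at) read 13.30, 13.36, 13.36, 13.40, 13.29 and 13.40 in mutant cocaine arrays, against 13.40, 13.39, 13.41, 13.28, 13.30 and 13.37 in control cocaine arrays. Saline arrays read 13.36, 13.34 and 13.39 in the mutant and 13.38, 13.34 and 13.34 in the control. All 18 values lay within 0.13 of each other on the log2 scale, and the 4 groups overlapped. The mutant minus control difference was 0.117%, with a 95% interval from -3.48% to 3.85%, and its limma adjusted p was 0.983. Its residual SD of 0.05 stood at the 1.02th percentile of all kept probe sets, against a median residual SD of 0.16. Within the Arabic-numbered cocaine arrays alone, its mutant values (13.34 ± 0.04) lay below its control values (13.40 ± 0.01; SD, n = 3 each) without overlap, as did 6.03% of all probe sets. The Roman-numbered arrays had the mean difference on the other side, 13.36 ± 0.07 in the mutant and 13.32 ± 0.05 in the control (SD, n = 3 each).

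ARPP-21, a phosphoprotein enriched in spiny neurons and a target of the cAMP-dependent kinase, was read by 3 probe sets that behaved differently. The brightest (1424248_at) read 14.11, 14.05, 14.06, 14.14, 13.98 and 14.12 in mutant cocaine arrays, against 14.15, 14.17, 14.19, 14.13, 14.11 and 14.09 in control cocaine arrays. In saline arrays it read 14.14, 14.27 and 14.21 in the mutant and 14.13, 14.11 and 14.18 in the control. Mutant values were thus at the upper end after saline and at the lower end after cocaine, with overlap in both. Its averaged genotype difference was 0.233%, with a 95% interval from -3.57% to 4.19%. After cocaine the mutant lay at -0.06 ± 0.03 (log2, SE, limma adjusted p = 0.432), and in the Arabic-numbered cocaine arrays the genotypes did not overlap (14.07 ± 0.03 in the mutant and 14.17 ± 0.02 in the control, SD, n = 3 each), with the mutant lower as in 6.03% of all probe sets.

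The other ARPP-21 probe sets held wider or flatter values. The dimmest, 1419028_at, ran between 9.41 and 9.68 over all 18 arrays and differed by 0.05 ± 0.05 (log2, SE, limma adjusted p = 0.725) between mutant and control. The remaining 1, 1451280_at, differed by -0.23 ± 0.21 (log2, SE, limma adjusted p = 0.725) between mutant and control with all arrays, and by -0.07 ± 0.04 (limma adjusted p = 0.620) without mutant cocaine replicate 5. That array read 11.18 there, and the other 17 ran from 12.69 to 13.23. The size and SE of this genotype value therefore depended on that 1 array. Its sign stayed the same when single arrays were left out, from -0.29 to -0.07.

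Both phosphodiesterases hydrolyse cyclic nucleotides, Pde1b under control of calmodulin and Pde10a chiefly in spiny neurons. Pde1b (1449420_at) read 13.42, 13.39, 13.35, 13.37, 13.16 and 13.39 in mutant cocaine arrays, against 13.28, 13.38, 13.48, 13.16, 13.20 and 13.23 in control cocaine arrays. Saline arrays read 13.40, 13.40 and 13.50 in the mutant and 13.34, 13.42 and 13.29 in the control. Apart from replicate 5, the mutant cocaine arrays were close together, while control cocaine values spread over a wider range. The averaged difference was 5.06% higher in the mutant, with a 95% interval from -0.650% to 11.1%, an adjusted p of 0.679 in limma and an exact permutation p of 0.0558, unadjusted. Without replicate 5 it was 6.03% higher, with an interval from 0.766% to 11.6%. Its unadjusted limma p was then 0.0268, as 8.57% of all probe sets lay under 0.05, and its adjusted p was 0.540, where 0% passed.

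Pde10a varied most between mice of the same group. Its brighter kept probe set (1419389_at) read 11.10, 10.87, 11.21, 11.43, 10.28 and 11.76 in mutant cocaine arrays, against 11.04, 11.21, 11.10, 10.42, 11.76 and 11.42 in control cocaine arrays. After saline it read 10.86, 11.01 and 11.11 in the mutant and 11.51, 11.52 and 10.66 in the control. Every group overlapped every other, and single arrays of 1 group lay over 1 log2 unit apart. The mutant minus control difference was -0.14 ± 0.21 for this probe set and -0.24 ± 0.25 for 1419390_at (log2, SE), with limma adjusted p values of 0.819 and 0.741. Without mutant cocaine replicate 5 the same differences were -0.044 ± 0.17 and -0.085 ± 0.14 (log2, SE), with limma adjusted p values of 0.954 and 0.884. After cocaine alone, 1419389_at differed by -0.046 ± 0.24 with all arrays and by 0.15 ± 0.20 without replicate 5 (log2, SE). The residual SDs of both stood at the 94.0th and 96.2th percentiles of all kept probe sets, and at the 95.9th and 92.2th without replicate 5. With all arrays the interval of the first ran from -33.1% to 23.1%. At this spread the estimate bounds the genotype difference only widely, and the smallest difference that could be detected was not computed. The remaining Pde10a probe set (1432490_a_at) lay below the filter, between 2.27 and 2.61.

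**Figure D2:**
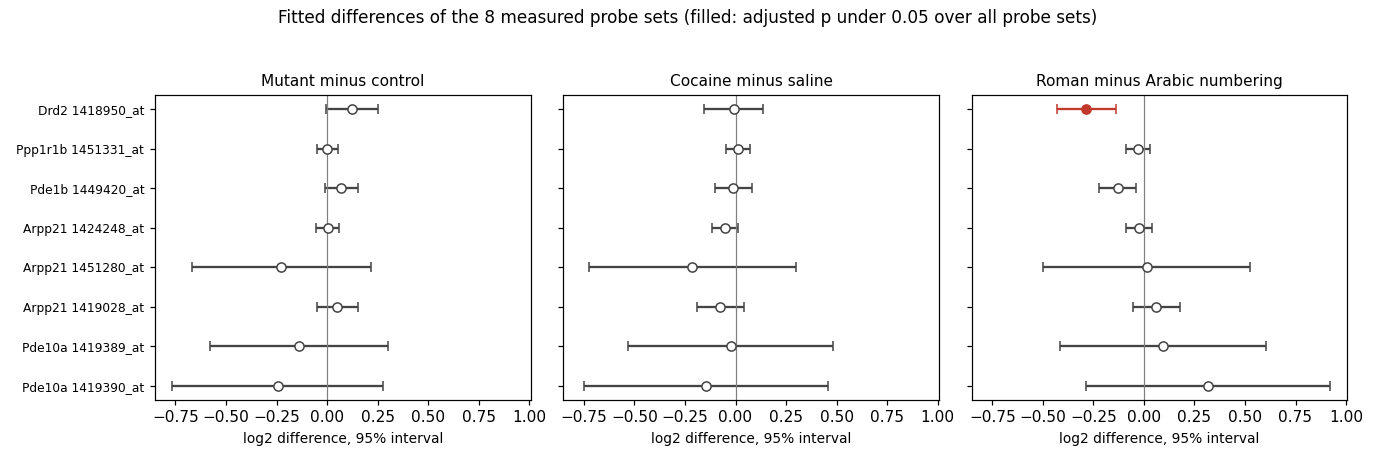
Limma log2 differences of the 8 measured probe sets with 95% intervals, for mutant minus control, cocaine minus saline and Roman minus Arabic numbering; filled points pass an adjusted p under 0.05 over all probe sets. Drd2 at -0.28 in the numbering panel is the single filled point, and the wide intervals belong to Pde10a and to Arpp21 1451280_at.

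Cocaine called no member with all 18 arrays. Limma called 0 of the 8 probe sets averaged over genotypes, where 0.221% of all probe sets passed, all of them higher, and 5.09% had an unadjusted p under 0.05. It called 0 of 8 in the control (background 0.11%, and 2.6% with an unadjusted p under 0.05) and 0 of 8 in the mutant (0.0473% and 6.95%). Averaged over genotypes, Drd2 differed by -0.643% after cocaine, with a 95% interval from -10.2% to 9.95%. Ppp1r1b differed by 0.854%, with an interval from -3.31% to 5.20%, and Pde1b by -0.709%, from -6.92% to 5.91%. The 2 kept Pde10a probe sets stood at -0.02 ± 0.24 and -0.14 ± 0.28 (log2, SE). For these genes the intervals bound the cocaine difference at 1 hour, narrowly for Ppp1r1b and Pde1b and widely for Pde10a.

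ARPP-21 probe set 1451280_at was the member with the clearest cocaine difference among the Arabic-numbered arrays. Its Arabic-numbered cocaine values were 12.73, 12.69 and 12.82 in mutant mice and 12.77, 12.87 and 12.88 in control mice. The saline values were 12.91, 12.94 and 13.07 in mutant mice and 13.15, 13.02 and 12.96 in control mice. The highest of the 6 cocaine values (12.88) lay below the lowest of the 6 saline values (12.91), a separation with cocaine lower that 1.62% of all probe sets showed, and none of the 7 other member probe sets did. Its averaged cocaine difference was -0.21 ± 0.24 (log2, SE) with all arrays and an adjusted p of 0.893 in limma. Without mutant cocaine replicate 5 the same difference had an SE of 0.04, a fall of 13.7% with a 95% interval from -18.9% to -8.20%, and a limma adjusted p of 0.0153. It was then the 1 member probe set of 8 called, against 2.86% of all probe sets (2.11% lower). By genotype, this fit gave -0.21 ± 0.06 in the mutant and -0.22 ± 0.06 in the control (log2, SE), with limma adjusted p values of 0.133 and 0.136. With all arrays the differences by genotype were -0.37 ± 0.32 in the mutant and -0.06 ± 0.32 in the control (log2, SE), and neither was called.

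The cocaine estimate of 1451280_at averaged over genotypes comes from the 12 Arabic-numbered arrays in each of these fits. Its size is therefore the same by construction and only the spread around it differs, which does not hold for the differences by genotype. In a fit to the Arabic-numbered arrays alone its SE was 0.04 and its limma adjusted p was 0.0193, the 1 member called, where 3.4% of all probe sets passed (2.62% lower). When replicate 5 and each of the 17 other arrays in turn were both left out, it passed in 17 of 17 fits, with limma adjusted p values from 0.0115 to 0.0441. All of these fits, chosen after seeing the data, leave out replicate 5, so they cannot show how the call depends on that array. Among Arabic-numbered mice the actin difference averaged 2.33 ± 0.16 after cocaine and 2.31 ± 0.09 after saline in the mutant. In the control it averaged 2.43 ± 0.19 after cocaine and 2.08 ± 0.20 after saline (SD, n = 3 each). The part of the actin difference in the Arpp21 cocaine difference was not tested beyond the covariate fits below. The 5 Roman-numbered cocaine arrays other than replicate 5 had Arpp21 values of 13.07 to 13.23, above every Arabic-numbered cocaine value. The saline arrays, all Arabic-numbered, ran from 12.91 to 13.15, and none of these 5 lay below that range. No Roman-numbered mouse had saline, so a cocaine difference could be measured only among Arabic-numbered arrays. Without replicate 5 this probe set was higher in Roman-numbered than in Arabic-numbered arrays, at 0.33 ± 0.04 (log2, SE). With the actin difference as a covariate and without replicate 5, the cocaine difference was -0.17 ± 0.04 (log2, SE, limma adjusted p = 0.0692). With that covariate and all arrays it was -0.05 ± 0.07 (limma adjusted p = 0.928). The other ARPP-21 probe sets differed by -0.05 ± 0.03 (1424248_at) and -0.08 ± 0.05 (1419028_at) in the averaged cocaine contrast (log2, SE), with limma adjusted p values of 0.859 each. Where on the transcript each probe set lies is not given in the sources used here.

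**Figure D3:**
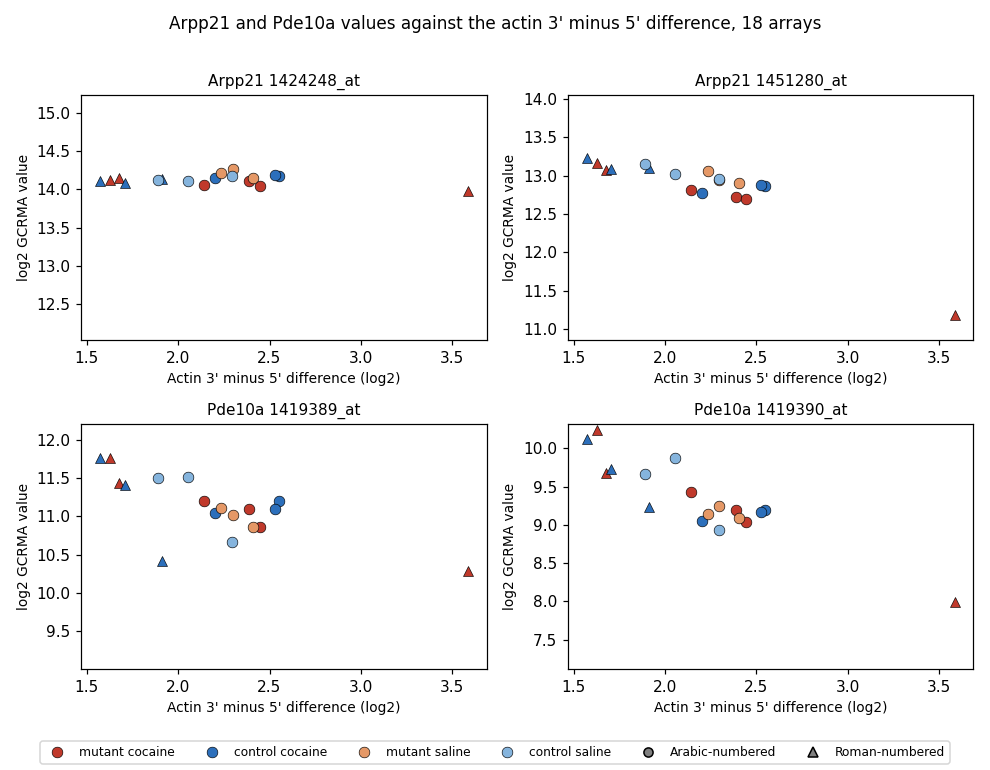
Log2 GCRMA values of 2 Arpp21 and 2 Pde10a probe sets (y) against the actin 3' minus 5' log2 difference (x) in all 18 arrays, coloured by group; the y axes cover the same span and do not start at 0. Mutant cocaine replicate 5 stands alone at 3.59 on the x axis, and it is the lowest array for all 4 probe sets.

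The interaction between genotype and cocaine was called for 0 of the 8 probe sets, with 0% of all probe sets past the threshold in limma and 2.68% with an unadjusted p under 0.05. The brightest ARPP-21 probe set had the member difference of smallest p. Its cocaine difference was -0.12 ± 0.04 in the mutant and 0.02 ± 0.04 in the control (log2, SE), and the interaction was -0.13 ± 0.05, with a limma adjusted p of 0.992. For Drd2 the interaction was 0.02 ± 0.12 and for Ppp1r1b -0.01 ± 0.05 (log2, SE), and without replicate 5 the Drd2 value was -0.023 ± 0.11.

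Numbering series was the 1 label by which a member passed the threshold with all 18 arrays. Drd2 was lower in the Roman-numbered arrays, at -0.28 ± 0.07 (log2, SE, limma adjusted p = 0.0271), a change of -17.9% with a 95% interval from -25.8% to -9.15%. It was the 1 probe set of 8 called, where 6.16% of all probe sets were called and 3.62% were lower. In control cocaine mice the Roman values ran from 11.12 to 11.35 and the Arabic values from 11.54 to 11.79, without overlap. The call was lost without mutant cocaine replicate 4 (-0.28) or without control cocaine replicate 2 (-0.26), 3 (-0.24), 4 (-0.27) or 5 (-0.24). It was also lost at -0.15 without mutant cocaine replicate 5 and with the actin covariate. What the numbering stands for is not given in the sources used here, and all Roman-numbered mice had cocaine.

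Over all cocaine arrays, Roman and Arabic values overlapped for each of the 8 member probe sets, where 1.84% of all probe sets did not overlap. Among control cocaine mice alone, 6 of the 8 had Roman and Arabic values that did not overlap, against 32.5% of all probe sets. Drd2, Pde1b, Ppp1r1b and Arpp21 1424248_at were lower in the Roman-numbered mice, as were 17.8% of all probe sets, and Pde10a 1419390_at and Arpp21 1451280_at were higher, as were 14.7%. Without mutant cocaine replicate 5, limma called 3 of the 8 in the numbering contrast, where 29.9% of all probe sets were called. Drd2 stood at -0.33, Pde10a 1419390_at at 0.64 and Arpp21 1451280_at at 0.33 (limma adjusted p = 4.68e-05). The last had no stable direction, since with all arrays and the actin covariate it was called at -0.32 (limma adjusted p = 0.0133). The actin difference was lower in these Roman-numbered arrays, and its part in these values was not tested beyond the covariate fits.

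Direct and indirect pathway markers were compared within each probe set, because levels of different probe sets cannot be set against each other on arrays. Each gene was centred on its mean over the 18 arrays. Direct markers with signal were Tac1 and Pdyn, the precursors of substance P and dynorphin, the transcription factors Isl1 and Ebf1, and Sfxn1. Indirect markers were Drd2, the enkephalin precursor Penk, and Plxdc1. None of these 8 passed for genotype, and their direct and indirect medians of 0.05 and 0.12 stood beside 0.03 over all genes. The genotype differences ranged from -0.21 ± 0.14 for Pdyn to 0.27 ± 0.11 for Ebf1 among direct markers, and from 0.01 ± 0.02 for Penk to 0.20 ± 0.10 for Plxdc1 among indirect markers (log2, SE).

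The balance of both classes, the direct mean minus the indirect mean, overlapped between genotypes when all arrays were taken. It averaged 0.01 ± 0.10 in mutant cocaine arrays and 0.06 ± 0.13 in control cocaine arrays (SD, n = 6 each). After saline it averaged -0.12 ± 0.07 in the mutant and -0.01 ± 0.06 in the control (SD, n = 3 each). In the Arabic-numbered cocaine arrays it was -0.11, -0.07 and 0.02 in the mutant, against 0.17, 0.17 and 0.06 in the control, without overlap. Among single probe sets, 12.1% of all did not overlap between genotypes in these arrays, and 6.03% had the mutant lower. In the Roman-numbered arrays the means were on the other side, 0.06 ± 0.11 in the mutant and -0.02 ± 0.14 in the control (SD, n = 3 each). The averaged genotype difference of the balance was -0.08, and it ran from -0.10 to -0.06 when single arrays were left out. The SD of 0.10 between arrays of a group describes single arrays and not the uncertainty of this mean difference. No test was made of it.

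**Figure D4:**
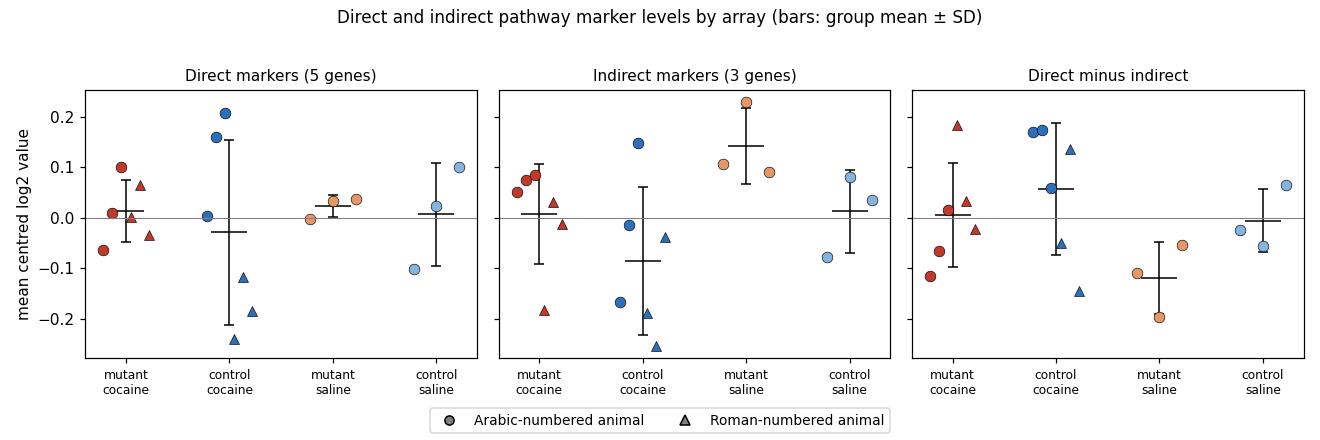
Mean centred log2 value of 5 direct pathway markers, of 3 indirect pathway markers and of their difference in every array, by group, with the group mean and SD; circles are Arabic-numbered and triangles Roman-numbered mice. In the right panel the Arabic-numbered cocaine circles run from -0.11 to 0.02 in the mutant and from 0.06 to 0.17 in the control.

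Other genes of the pathway, namely receptors, G protein subunits, cyclases, kinases and phosphatases, were read in the same way. Of 54 listed genes, 43 had a singly annotated probe set, and 41 of these had signal. With all arrays limma called 0 of the 41 for genotype and 0 for cocaine in any contrast. Their median genotype difference was 0.02, against 0.03 over all 7583 genes. In limma 2 of the 41 had an unadjusted p under 0.05, where 7.13% of all probe sets did. These 2, named after their values were seen, were Rgs9, a regulator of G protein signalling of spiny neurons (0.13 ± 0.04), and the inhibitory subunit Gnai2 (0.24 ± 0.11; log2, SE). The 2 brightest members were the calcineurin subunit Ppp3ca, which acts in dephosphorylating DARPP-32, at -0.04 ± 0.03, and the stimulatory subunit Gnas at -0.01 ± 0.07 (log2, SE, mutant minus control). Their cocaine differences were -0.08 ± 0.03 and -0.03 ± 0.08 (log2, SE).

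Without mutant cocaine replicate 5, 2 of the 41 pathway genes fell after cocaine, named here after their values were seen, against 2.86% of all probe sets called. Ppp3cb, another calcineurin subunit, stood at -0.35 ± 0.07 (log2, SE, limma adjusted p = 0.0178). Prkar1a, a regulatory subunit of the cAMP-dependent kinase, stood at -0.18 ± 0.04 (log2, SE, limma adjusted p = 0.0286). With all arrays the same differences had limma adjusted p values of 0.859 each. In the numbering contrast with all arrays, 5 of the 41 were called, against 6.16% of all probe sets, also named after their values were seen. The Cdk5 activator Cdk5r1 (-0.25), the phosphatase Ptpn5 (-0.23), Prkar1b (-0.19) and Gnb2 (-0.18) were lower and Gnai3 (0.32) higher in the Roman-numbered arrays.

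The genes whose values ran closest to Drd2 over the 18 arrays, after group means were taken off, were Myo18a (Pearson r = 0.944), Rab15 (0.938) and Ldhb (0.922). The same 3 were closest without mutant cocaine replicate 5. For Ppp1r1b they were Cd99 (0.809), Wdr45b (0.765) and Caln1 (0.743), and without replicate 5 Cd99, Wdr45b and Set. These correlations are a description over arrays that share their processing and numbering series. Drd2 itself had r = 0.610 with the actin difference over all 18 arrays and 0.764 without mutant cocaine replicate 5.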

How the data were processed

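Log2 expression values for 22690 probe sets on 18 mouse striatum arrays were used as deposited. The authors made these log2 values with GCRMA in R 2.4.1, per the submitters' processing notes, a method that models background from probe sequence, makes array distributions alike and gives 1 value per probe set. Which options were set is not given in the sources used here. Shifts in total signal are lost in that step, and dim values are compressed. Precision depends on how many arrays there were, as depth has no meaning here.

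Genotype, treatment and animal numbers came from the titles, which call the samples biological replicates. Replicate numbers were taken as names. Of 21 same-numbered pairs, 7 had residuals correlated above 0.1 (range -0.23 to 0.31), which cannot show that mice were unpaired. Animal numbers in the titles also run in consecutive blocks. Arabic-numbered blocks hold 1 mouse of each group, and Roman-numbered blocks 1 mutant and 1 control. Of 21 pairs within these blocks, 9 had residuals correlated above 0.1. The fit reported here and the permutation did not use these blocks. A fit with them called 0 members for genotype averaged over treatments and 0 for cocaine averaged over genotypes. No 2 arrays were identical. Probe sets above log2 4 in at least 3 arrays were kept (12674) after 64 control probe sets were left out. Of these, 11749 carried 1 symbol, 406 several and 519 none, and only those with 1 symbol were named. Limma 3.58.1 in R 4.3.3 fitted the 4 groups and the numbering series with a variance trend, two-sided moderated tests and Benjamini-Hochberg adjustment over all kept probe sets, with an adjusted p under 0.05 as threshold. The script was tested on simulated data. Single genes were also compared by exact permutation.

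The genes named were every member probe set, Camk4, the 2 brightest genes of the pathway list where none passed in the genotype and cocaine contrasts, list members called, and the 3 nearest patterns of Drd2 and Ppp1r1b. Each gene of a list stood as its kept probe set of highest mean. The members and lists were chosen with earlier results of these data known. Alternatives covered the series term, blocks, the filter, scaling, moderation, variance trend, array weights, the arrays that enter, an actin covariate, the threshold and leaving out each array. Promoter windows came from RefSeq (GRCm38.p6) and span each gene start. Figures were drawn with matplotlib 3.10.9 in Python 3.11.15.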

Additional observations from a re-analysis of the deposited data

Results flagged for a closer look

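Among the 20 groups of 6 arrays examined for the 10 member probe sets, 3 held an array far from the others, and chance gives about 1 in 20. Arpp21 1451280_at read 11.18 in mutant cocaine replicate 5, where the nearest array of its group read 12.69. Pde1b read 13.16 in the same array, where the nearest read 13.35. That array also had the actin 3' minus 5' difference of 3.59, and its part in these 2 values was not tested. Pde10a 1432490_a_at read 2.61 in mutant cocaine replicate 6, where the nearest read 2.30, with both values under the filter.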

How the results depend on the processing

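Each result was recomputed under the alternatives that apply to it. The numbering contrast has no value without the series term, with the replicate or consecutive-number block, which lie within a series, or in Arabic-numbered arrays alone. For 6 contrasts (genotype averaged, after saline and after cocaine, cocaine by genotype, and the interaction) the count of called members stayed at 0 of 8 in each fit made. With the replicate number as a block the averaged cocaine count was 0, and Drd2 was at 0.12 for genotype (limma adjusted p = 0.585), and the block changed no member's call for genotype, cocaine or their interaction. The Drd2 numbering call could not be fitted with it. Over all alternatives the Drd2 genotype difference ran from 0.05 to 0.16, with limma adjusted p from 0.510 to 1.00. For cocaine averaged over genotypes the count was 1 in the Arabic-numbered arrays alone (3.4% of all probe sets), and 0 to 1 when single arrays were left out (0.158% to 2.86%). For numbering it was 3 with array weights (28.7% of all probe sets; Drd2, Pde10a 1419390_at and Arpp21 1451280_at) and 3 with the actin covariate (7.21%; Drd2, Pde1b and Arpp21 1451280_at). It was 2 with arrays centred on their medians (5.77%) or a threshold of 0.1 (11.9%), Drd2 and Pde1b in both, and 0 to 3 when single arrays were left out (1.9% to 29.9%). It was 0 (3.16%) with the actin covariate and without mutant cocaine replicate 5, an alternative chosen after seeing the data, as was leaving that array out together with each other array. By permutation, 0 to 2 of 5 genes had p under 0.05 when single arrays were left out, so the single p of Drd2 depends on the arrays that enter.

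Of the values that changed sign, none had passed with all arrays in the fit reported, but 2 passed in other fits. In the numbering contrast Arpp21 1451280_at passed in limma in opposite directions, at -0.32 with actin (adjusted p = 0.0133), 0.30 with array weights (adjusted p = 0.0216) and 0.33 without replicate 5 (adjusted p = 4.68e-05). Pde10a 1419390_at passed at 0.65 with array weights and 0.64 without replicate 5. For genotype these were Pde10a 1419389_at (0.021 with the actin covariate, 0.072 with it and without replicate 5), Pde10a 1419390_at (0.0046 in the last), Arpp21 1424248_at (-0.0040 after quantile normalization, -0.013 in Arabic-numbered arrays) and Ppp1r1b (-0.024 in Arabic-numbered arrays). For cocaine they were Drd2 (0.012 centred, 0.0016 after quantile normalization), Pde1b (0.011 centred, 0.0021 with actin) and Ppp1r1b (-0.0026 without the series term, -9.6e-05 with array weights). Pde10a 1419389_at turned to 0.022 without the series term, 0.099 with actin and 0.27 without replicate 5 as well, and 1419390_at to 0.014, 0.036 and 0.082 there. For numbering, with actin and then also without replicate 5, Pde10a 1419389_at was -0.16 and -0.83, and 1419390_at -0.046 and -0.23. Arpp21 1424248_at was 0.042 in the last, and Arpp21 1451280_at -0.012 centred and -0.32 with actin. Leaving out single arrays turned signs for genotype in Arpp21 1424248_at (-0.012 to 0.019) and Ppp1r1b (-0.0057 to 0.0096), and for cocaine in Drd2 (-0.050 to 0.023), Pde10a 1419389_at (-0.17 to 0.047) and Pde1b (-0.038 to 0.0069). For numbering it did so in Pde10a 1419389_at (-0.042 to 0.29) and Arpp21 1451280_at (-0.11 to 0.33). The causes were not tested.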

Other observations

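Other shared spiny neuron genes, which are no members, gave values in the same contrasts. Of the 12 in that list with signal, 0 passed for genotype in limma, with a list median of 0.04 against 0.03 over all genes. An unadjusted p under 0.05 was found for 2 of the 12, where 7.13% of all probe sets had such a p. These were Rgs9 and the transcription factor Bcl11b (0.11 ± 0.05, log2, SE, mutant minus control). In the numbering contrast Bcl11b (-0.33 ± 0.06) and Ptpn5 (-0.23 ± 0.05) were lower in the Roman-numbered arrays in limma (adjusted p = 0.00786 and 0.0118), as was the direct pathway marker Sfxn1 (-0.39 ± 0.09, adjusted p = 0.0174). Over the lists, 2 of 12 shared spiny neuron, 1 of 5 direct, 1 of 3 indirect (Drd2) and 1 of 5 GABAergic interneuron genes (Nos1, -0.43 ± 0.12, adjusted p = 0.0468) were lower by this call, and 0 in the other cell type lists, against 3.62% of all probe sets. These genes were named after their values were seen.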
